A study of Sus scrofa with 150 samples.

Results

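The endoplasmic reticulum (ER) chaperones described here were 8 genes, HSPA5, HSP90B1, DNAJB11, MANF, CALR, PDIA4, PDIA6 and XBP1. They were chosen by symbol from the annotation of the Affymetrix Porcine Genome Array and had 11 of its 23999 probe sets other than controls, or 8 of the 6765 gene symbols it names. Liver RNA of 150 commercial crossbred pigs, written Pix(DLxDE) in the labels, had been hybridised to 1 array per pig. The livers were taken at slaughter, and all belong to 1 untreated group without controls. Each pig carries 2 traits: the fat area over the long back muscle, from 8.1 to 26.7 cm2, and its drip loss, the share of the muscle's weight that is lost as fluid, from 1.45 to 10.82%. Sex, litter, feeding and the hour of slaughter were not given in the labels, so p-values measure the spread between these livers only.

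Proteins that a cell secretes are folded in the ER, and the hepatocyte, which makes most plasma proteins, carries a large load of them. HSPA5 (also called BiP) is the Hsp70 of the ER and holds unfolded chains. HSP90B1 is its Hsp90, DNAJB11 is a J-domain partner that brings clients to HSPA5, and MANF is a small protein that binds HSPA5 and is also secreted. CALR (calreticulin) is a lectin that holds glycoproteins, and PDIA4 and PDIA6 form and exchange disulfide bonds. XBP1 is not a chaperone but a transcription factor: its mRNA is spliced by the sensor IRE1 when unfolded protein builds up, and the spliced form turns on genes of folding and secretion. These probe sets measure total XBP1 mRNA, and the spliced and unspliced forms were not told apart. In other mammals the liver clock, in which ARNTL drives DBP and NFIL3 opposes it, sets daily rhythms in many liver transcripts.

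The tissue label could be checked on the same arrays. Of 11 hepatocyte markers, ALB ran from 13.69 to 14.11 and APOA1 from 13.57 to 14.08 on the log2 scale. None of the 8 genes was near the lowest value of the table, which was 4.09. Array medians ran from 5.79 to 6.09, and 13 arrays correlated less with the others than the rest did (over 3 median absolute deviations below the median). In whole liver, fewer cells of a type and less RNA per cell cannot be told apart.

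Every gene of the set varied over the 150 livers, some widely. A gene with several probe sets is represented by the brightest of them, and levels of different genes are not compared, since probe sets differ in how brightly they report. HSPA5 (Entrez gene 407060) had a lowest, median and highest log2 level of 10.4, 11.69 and 13.26, a 7.26-fold range. Its SD of 0.523 lay at the 93.2nd percentile of all probe sets. HSP90B1 (397191) ran from 8.42 over a median of 10.07 to 12.43, a 16.1-fold range with an SD of 0.738, and its other probe set correlated with it at r = 0.857. DNAJB11 (100152894) ran from 6.06 over 7.06 to 8.48 (SD 0.464).

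MANF (100505460) ran from 8.81 over a median of 10.11 to 11.7, a 7.41-fold range with an SD of 0.608, at the 96.6th percentile. PDIA4 (100522203) ran from 9.65 over 10.68 to 12.2, with an SD of 0.405, and its other 2 probe sets correlated with it at r = 0.642 and 0.579. The remaining genes had narrower spreads. PDIA6 (100499564) ran from 10.96 over 11.56 to 12.64 (SD 0.277), CALR (100381266) from 7.65 over 8.37 to 9.24 (SD 0.287), and XBP1 (100217386) from 10.63 over 11.38 to 12.4 (SD 0.306).

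**Figure D1:**
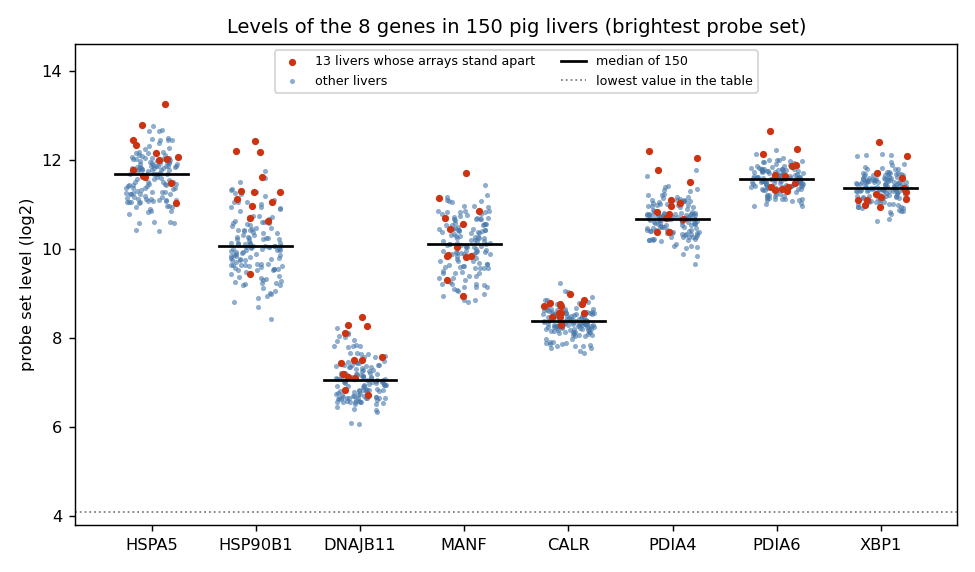
Log2 level of the brightest probe set of each of the 8 genes (y axis) in 150 livers (points, spread sideways), with the median as a black line, the 13 arrays that stand apart in red and the table's lowest value dotted. HSP90B1 runs from 8.42 to 12.43 and most red points lie above its median, while PDIA6, CALR and XBP1 have the narrowest spreads.

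Some livers carried several of the genes high or low together. Liver 48, numbered in the order of deposition and with a low DBP level of 6.53, was highest of 150 for HSPA5 (13.26), HSP90B1 (12.43) and DNAJB11 (8.48), and its MANF level of 10.69 ranked 28. Another liver was highest for MANF (11.7) and XBP1 (12.4), with the next highest HSPA5 (12.78) and a DBP level of 6.28. The arrays of both stand apart. Liver 31, whose array does not, had HSPA5 at 12.76 and MANF at 11.44 but ranked 120 for CALR. Its DBP level was not low, at 8.45 and rank 34 from the highest. At the other end, liver 63 had the lowest HSPA5 (10.4) and low MANF (8.84) and DNAJB11 (6.34), but ranked 68 for PDIA6. Of the 150 livers, 2 were among the 15 highest for at least 7 of the 8 genes and 0 for all 8.

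The levels of the genes went together from liver to liver. Of their 28 pairs 26 had a positive Pearson's r over the 150 livers, the median being 0.414, and 11 (39.3%) exceeded 0.5. Among all 22879230 pairs of named genes the median r was 0.0044 and 3.15% exceeded 0.5. These correlations are descriptions: both levels of a pair come from the same arrays, and the genes were chosen with results of these data known. The highest were between DNAJB11 and PDIA4 (r = 0.804), DNAJB11 and HSPA5 (0.779), DNAJB11 and HSP90B1 (0.713), and MANF and HSPA5 (0.697).

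DNAJB11 had the highest median r with the other 7 genes, 0.631, and CALR the lowest, 0.251. XBP1 correlated with MANF at 0.629 and with HSPA5 at 0.409, but with HSP90B1 at -0.0066 and with CALR at -0.0539. PDIA6 correlated with PDIA4 at 0.643 and with HSPA5 at 0.316. Without the 13 arrays that stand apart the median r of the 28 pairs was 0.379, and given the array median it was 0.45. The pair of MANF and HSP90B1 moved most with the array median, with an r of 0.244 as measured and 0.505 given it.

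HSP90B1 itself followed measures of the arrays. Its level correlated with the array median at r = 0.602, with the 3 prime minus 5 prime difference of the GAPDH control, a sign of RNA integrity, at 0.54, and with an array's median correlation with the others at -0.571. On the 13 arrays that stand apart HSP90B1 averaged 11.2 ± 0.785, against 10.1 ± 0.648 on the rest (log2, SD). DNAJB11 averaged 7.55 ± 0.576 on the 13 and 7.05 ± 0.43 on the rest, and CALR averaged 8.65 ± 0.186 on the 13 and 8.34 ± 0.281 on the rest. PDIA4 averaged 11.1 ± 0.598 on the 13 and 10.7 ± 0.362 on the rest, and HSPA5 12.1 ± 0.58 on the 13 and 11.6 ± 0.502 on the rest. XBP1 averaged 11.4 on both sets. The clock gene DBP averaged 7.25 ± 0.694 on the 13 and 8.0 ± 0.611 on the rest. Values without these arrays, or with measures of array quality as covariates, are given where they bear on a result.

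**Figure D2:**
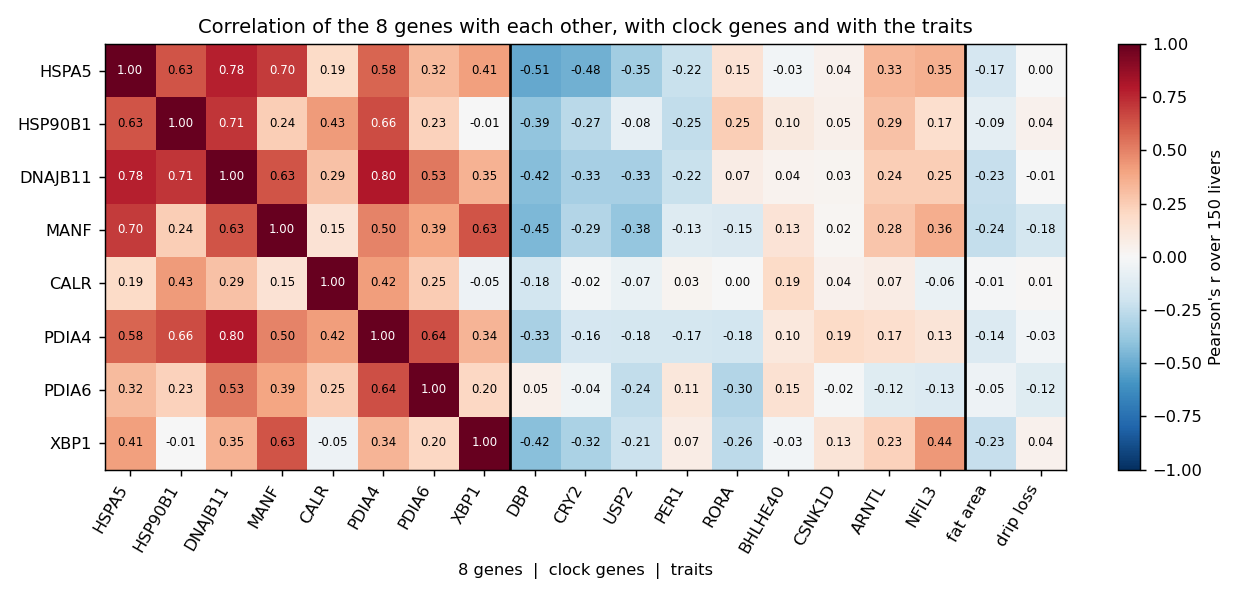
Pearson's r over 150 livers of the 8 genes (rows) with each other, with 9 clock genes and with the 2 traits (columns, blocks divided by black lines), red for positive and blue for negative. DNAJB11 and PDIA4 reach 0.80, DBP is negative with 7 of the 8 genes, and drip loss is close to 0 with most of them.

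The slope of every probe set on the HSPA5 level was fitted with limma, per SD of HSPA5 (0.523 on the log2 scale), and a probe set was called where its p, adjusted over the whole array by Benjamini and Hochberg, was under 0.05. HSPA5 went with a large share of the liver transcriptome: 34% of the 23998 other probe sets were called, 19.9% with a positive slope. Of the other 7 genes 6 rose with HSPA5, which is read against that 19.9%. HSP90B1 rose by 0.46 (SE 0.047), MANF by 0.42 (SE 0.035), DNAJB11 by 0.36 (SE 0.024) and PDIA4 by 0.24 (SE 0.027). XBP1 rose by 0.13 (SE 0.023, adjusted p = 3.69e-06) and PDIA6 by 0.09 (SE 0.022, adjusted p = 0.000581). For CALR the slope was 0.05 (SE 0.023, adjusted p = 0.0565). CALR was called in 2 of 12 alternative settings. It passed among probe sets with an SD above 0.25 (adjusted p = 0.0464). It also passed with 5 principal components as covariates (slope 0.08, adjusted p = 0.0426), where XBP1 was not called (adjusted p = 0.121). Without the arrays that stand apart CALR was not called (slope 0.033, adjusted p = 0.323). Nor was it under quantile normalization (adjusted p = 0.156) or with the array median as covariate (adjusted p = 0.137). With the 3 prime to 5 prime differences of the controls as covariates its adjusted p was 0.206. Slopes between levels on the same arrays also hold whatever the arrays share.

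Genes of the same pathway outside the set were counted from lists. Among other ER chaperones and foldases, 12 of 17 rose with HSPA5 and 1 fell, with a median slope of 0.14, against 1642 higher and 1330 lower of all 6764 named genes and a median of -0.0016. HYOU1, a large Hsp70 relative that serves HSPA5 as exchange factor, rose by 0.45 (SE 0.039), CRELD2, a disulfide isomerase induced by ER stress, by 0.39 (SE 0.044), DNAJB9, a J-domain protein of the ER, by 0.31 (SE 0.035) and SDF2L1, a partner of DNAJB11, by 0.25 (SE 0.044). FKBP2, a peptidyl-prolyl isomerase, fell by 0.06 (SE 0.018, adjusted p = 0.00461). ERP29 and FKBP11 had slopes of -0.023 and -0.0091 and did not pass.

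The steps before and after folding were counted in the same way. Of 22 genes of translocation into the ER 17 rose and 1 fell, among them SRP72, part of the signal recognition particle (0.29, SE 0.033), SRPRB, a subunit of its receptor (0.25, SE 0.031), and TRAM1 (0.24, SE 0.035). Of 22 genes of ER to Golgi transport 17 rose and 1 fell. SEC24D and SEC23B, coat proteins of the vesicles that leave the ER, rose by 0.39 (SE 0.031) and 0.29 (SE 0.025), while KDELR1, a receptor that returns chaperones to the ER, fell by 0.08 (SE 0.015). Of 15 genes of N-glycosylation 9 rose and 1 fell, OSTC of the oligosaccharyltransferase rising by 0.30 (SE 0.024). Of 9 genes that clear misfolded proteins from the ER 5 rose and 0 fell, ERLEC1 by 0.31 (SE 0.027) and SELENOS by 0.28 (SE 0.025).

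The other arm of ER stress, in which PERK acts through ATF4, had 3 of 13 genes higher and 1 lower. ATF4 rose by 0.13 (SE 0.026), CEBPG, its dimer partner, by 0.21 (SE 0.023) and CTH by 0.18 (SE 0.038), and PHGDH fell by 0.18 (SE 0.05). DDIT3 (CHOP), the death-associated factor of that arm, had a slope of 0.004 (SE 0.023, adjusted p = 0.922). Of the 2 sensors measured, ATF6B and CREB3L2, 0 passed, at slopes of -0.032 and 0.018. Chaperones of the cytosol were called as well, 12 of 14 higher and 0 lower, among them HSPH1 (0.38, SE 0.054), HSPA8 (0.32, SE 0.039) and HSP90AA1 (0.29, SE 0.035).

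Among 17 secreted plasma proteins, clients of the ER, 4 rose and 1 fell. APOB of lipoproteins rose by 0.19 (SE 0.048) and FGG, a fibrinogen chain, by 0.12 (SE 0.015), while ALB had a slope of -0.0028 (SE 0.0071, adjusted p = 0.81). Acute phase proteins had 4 of 10 higher, with CRP at 0.34 (SE 0.059) and LBP at 0.31 (SE 0.067). Lipogenesis and cholesterol synthesis had 0 of 13 higher and 4 lower, FASN falling by 0.24 (SE 0.064) and DGAT2 by 0.17 (SE 0.027). Immediate early genes had 0 of 14 called. Genes of fasting and PPARA had 3 of 9 higher and 1 lower, with PLIN2 of lipid droplets at 0.32 and CPT1A of fatty acid oxidation at 0.22. Without the 13 arrays that stand apart the counts were 12 and 1 for other ER chaperones, 17 and 1 for translocation, 19 and 1 for ER to Golgi transport, 12 and 0 for cytosolic chaperones and 0 and 3 for lipogenesis (higher and lower).

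**Figure D3:**
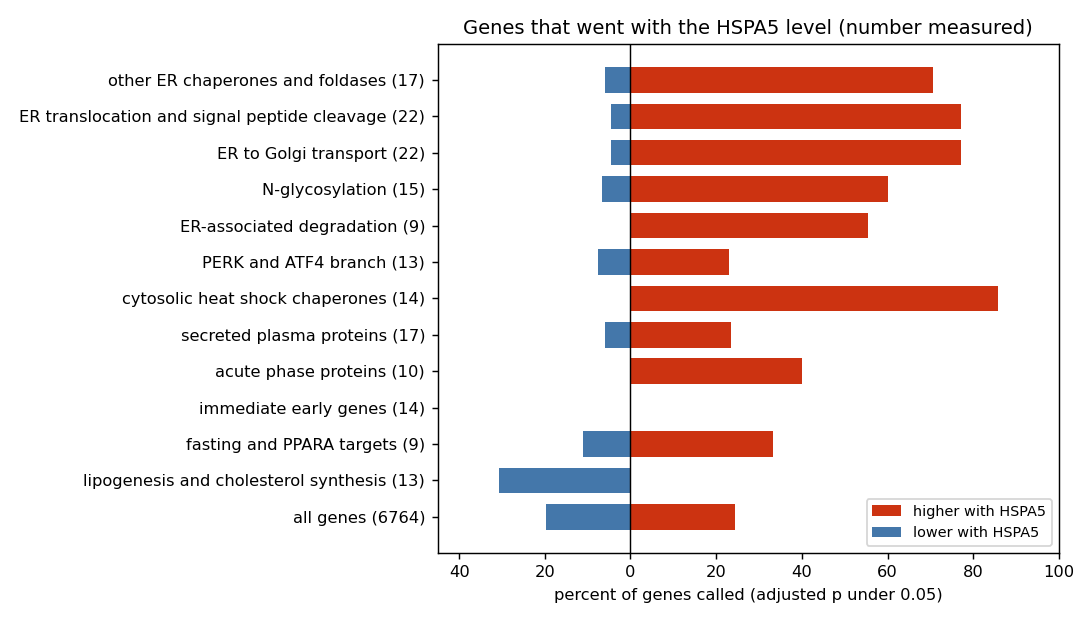
Percent of the measured genes of each list (x axis) called higher (red, right of 0) or lower (blue, left of 0) with the HSPA5 level over 150 livers, with the number of genes in brackets and all named genes in the bottom row. Translocation, ER to Golgi transport, other ER chaperones and cytosolic chaperones each have over 70% of their genes higher, against 24.3% of all named genes.

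Markers of other liver cells were counted in the same fit, where 24.3% of all named genes were higher and 19.7% lower. Of 8 macrophage markers 2 rose, CD163 by 0.24 (SE 0.037) and CTSS by 0.13 (SE 0.026). Of 3 markers of plasma and B cells 1 rose, JCHAIN by 0.17 (SE 0.049). Red blood cell markers had 1 of 4 higher (HBB) and 3 lower. Higher and lower were 2 and 0 of 9 stellate cell, 1 and 2 of 7 endothelial, 1 and 1 of 7 bile duct, 0 and 0 of 8 T and NK cell, 0 and 1 of 3 exocrine pancreas and 2 and 1 of 11 hepatocyte markers. Summed on the linear scale, the macrophage list ran from 12.4 to 14.1 (log2 of the sum) and correlated with HSPA5 at r = 0.153. The plasma and B cell list ran from 7.27 to 9.89 (r = 0.265) and the red blood cell list from 8.88 to 12.1 (r = -0.249). None of the markers had its median at the table's lowest value, and their part in the slopes was not tested.

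By likeness to the mean of the 8 standardized genes over the 150 livers, the first 10 of 6757 other named genes were HYOU1 (r = 0.816), CRELD2 (0.79), MORF4L2 (0.778), SRPRA (0.764), SDF2L1 (0.737), TMED2 (0.716), GFPT1 (0.713), SEC24D (0.697), MESDC2 (0.69) and NUCB2 (0.684). The 5 most opposed were FDX1 (r = -0.634), SCGB1D1 (-0.606), POP7 (-0.597), DNASE1 (-0.582) and FMC1 (-0.579).

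The relation to the clock was asked first of DBP, the output gene. DBP ran from 6.06 over a median of 8.05 to 9.74 on the log2 scale. Of the 8 genes 6 were lower in livers with more DBP, where 11.9% of 23998 probe sets had a called negative slope and 20.9% a called slope of either sign. Per SD of DBP (0.651), HSP90B1 fell by 0.29 (SE 0.055, adjusted p = 3.04e-05), MANF by 0.27 (SE 0.044, adjusted p = 1.21e-06), HSPA5 by 0.27 (SE 0.037, adjusted p = 1.08e-08) and DNAJB11 by 0.20 (SE 0.034, adjusted p = 5.29e-06). PDIA4 fell by 0.13 (SE 0.031, adjusted p = 0.000829) and XBP1 by 0.13 (SE 0.023, adjusted p = 9.12e-06). CALR (slope -0.05, SE 0.023, adjusted p = 0.0894) and PDIA6 (slope 0.01, 95% interval -0.0308 to 0.0587, adjusted p = 0.708) did not pass, and whether their slopes differ from those of the other genes was not tested.

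Several of these values moved with the arrays or covariates used. Without the 13 arrays HSP90B1 had a slope of -0.17 (adjusted p = 0.0261). PDIA4 was not called without the 13 arrays (slope -0.07, adjusted p = 0.158), and its other 2 probe sets did not pass on all arrays (adjusted p = 0.141 and 0.0943). With the 3 prime to 5 prime differences of the controls as covariates both were called, HSP90B1 at -0.22 (adjusted p = 0.000186) and PDIA4 at -0.12 (adjusted p = 0.0038), and they were called with the array median as well. In all, PDIA4 was called with DBP in 10 of 12 alternative settings. The other probe set of HSP90B1 fell by 0.30 (SE 0.063, adjusted p = 0.000157). With the first 5 principal components as covariates only MANF (slope -0.22) and HSPA5 (-0.16) of the 8 were called, with DNAJB11 at -0.11 (adjusted p = 0.0641) and XBP1 at -0.04 (adjusted p = 0.337). In that fit HSP90B1 had a slope of -0.05 (adjusted p = 0.493) and PDIA4 of -0.02 (adjusted p = 0.885). The third of those components itself correlated with MANF at r = 0.598, with DNAJB11 at 0.584, with HSPA5 at 0.505 and with XBP1 at 0.615, and with DBP at -0.424. The first correlated with HSP90B1 at r = 0.785 and with DBP at -0.225.

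As single relations, HSPA5 correlated with DBP at r = -0.508 and rho = -0.494, MANF at -0.446 and -0.461, DNAJB11 at -0.424 and -0.387, and XBP1 at -0.417 and -0.368. Each had a permutation p of 1e-05, the smallest that 100000 resamples can give; these were among 88 relations of the 8 genes with 9 clock genes and 2 traits, and the adjusted p above are those over the whole array. Without the 2 livers of most extreme DBP, r was -0.53 for HSPA5, -0.479 for MANF, -0.365 for DNAJB11 and -0.403 for XBP1. The titles number the pigs, with no meaning stated, and within 10 blocks of 100 such numbers r was negative in 10 for HSPA5 and XBP1 and in 9 for MANF and DNAJB11. With the block means removed it was -0.517 for HSPA5, -0.486 for XBP1, -0.509 for MANF and -0.47 for DNAJB11. HSP90B1 (r = -0.393, within blocks -0.399) was negative in 7 of the 10 and had -0.259 without the 13 arrays.

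**Figure D4:**
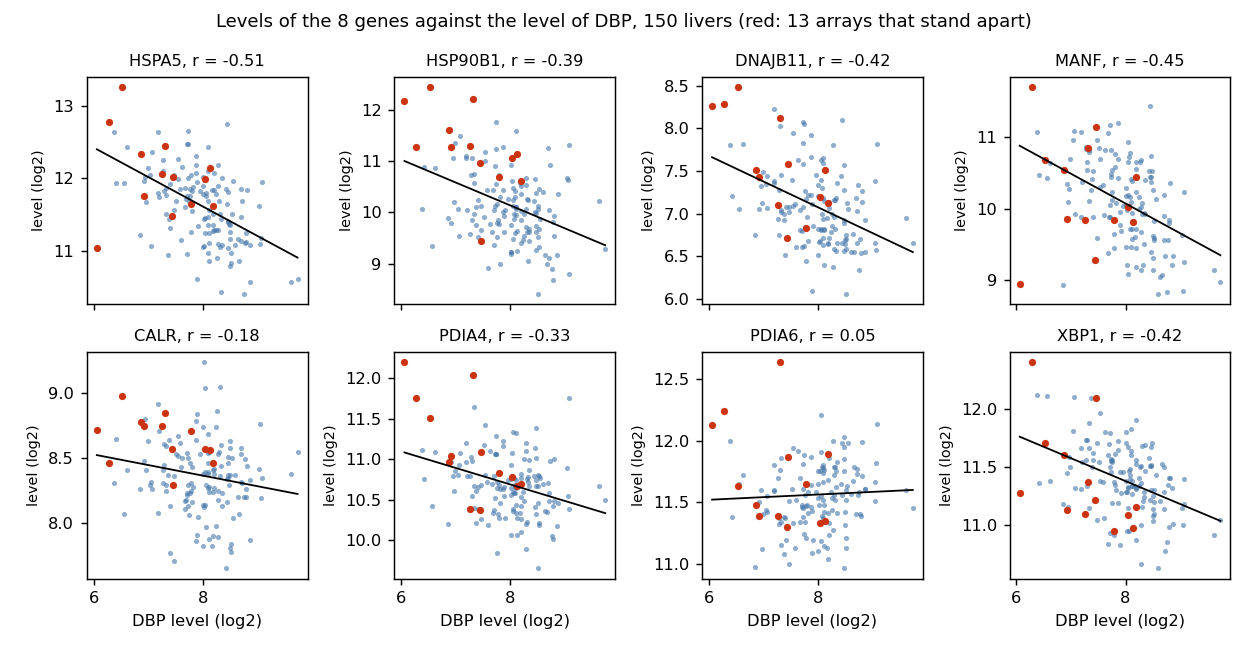
Log2 level of each of the 8 genes (y axes) against the log2 level of DBP (x axis) in 150 livers, with the least-squares line and the 13 arrays that stand apart in red. HSPA5 falls most tightly with DBP (r = -0.51), PDIA6 does not (r = 0.05), and for PDIA4 some of the red points of low DBP lie at the top.

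ARNTL and NFIL3 run opposite to DBP in these livers, with r of -0.668 and -0.571, so their fits are not independent of it. With ARNTL, the core activator, 5 of the 8 genes were higher, where 7.1% of probe sets had a called positive slope: HSP90B1 by 0.22 (SE 0.057), HSPA5 by 0.17 (SE 0.04), MANF by 0.17 (SE 0.047), DNAJB11 by 0.11 (SE 0.037, adjusted p = 0.0333) and XBP1 by 0.07 (SE 0.024, adjusted p = 0.0428). Without the 13 arrays DNAJB11 (adjusted p = 0.113) and XBP1 (0.0774) were not called, and under quantile normalization and with the array median as covariate DNAJB11 and HSP90B1 were not (adjusted p from 0.119 to 0.177). With NFIL3, the repressor that competes with DBP, 4 were higher, where 4.75% of probe sets were: MANF by 0.22 (SE 0.046), HSPA5 by 0.18 (SE 0.04), XBP1 by 0.13 (SE 0.023, adjusted p = 4.88e-06) and DNAJB11 by 0.12 (SE 0.037, adjusted p = 0.0306). DNAJB11 was not called with NFIL3 without the 13 arrays (adjusted p = 0.117) or under quantile normalization (0.0786). XBP1 had the highest correlation with NFIL3 of the 8 genes (r = 0.436, rho = 0.405). With 5 principal components as covariates 0 of the 8 were called with either gene.

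Fits on other clock genes were added after the data were seen. CRY2 and USP2 correlated with DBP at r = 0.573 and 0.326, so their fits are not independent of it either. With CRY2, a repressor of ARNTL, 5 of the 8 genes were lower, where 12.8% of probe sets were: HSPA5 by 0.25 (SE 0.037, adjusted p = 1.39e-07), HSP90B1 by 0.20 (SE 0.058), MANF by 0.18 (SE 0.047), DNAJB11 by 0.15 (SE 0.036) and XBP1 by 0.10 (SE 0.024). HSP90B1 was not called without the 13 arrays (adjusted p = 0.105) or with the array median as covariate (0.165), and with 5 principal components the count was 2. With USP2, a deubiquitinase whose transcript cycles in mouse liver, 3 were lower, where 0.888% of probe sets were: MANF by 0.23 (SE 0.045, adjusted p = 0.000655), HSPA5 by 0.18 (SE 0.04, adjusted p = 0.00278) and DNAJB11 by 0.15 (SE 0.036, adjusted p = 0.00706). The same genes were called with USP2 under quantile normalization, without the 13 arrays, with the array median and with 5 principal components. With any probe set of a gene counted, 6 genes were called with CRY2 and 4 with USP2. PDIA4 was added by probe sets other than its brightest, at -0.12 with CRY2 (adjusted p = 0.0114) and -0.11 with USP2 (adjusted p = 0.0143). Its brightest did not pass (adjusted p = 0.129 and 0.242).

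PER1 and RORA gave weaker or mixed relations. With PER1, 3 of the 8 genes were lower, where 7.71% of probe sets were, namely HSP90B1, HSPA5 and DNAJB11 (adjusted p from 0.0256 to 0.0482), and 0 with the array median as covariate; the 2 probe sets of PER1 correlated with each other at only 0.176. RORA was called with 42.4% of probe sets, and 26% had a positive slope. HSP90B1 rose with it by 0.18 (SE 0.058), but with the array median as covariate its slope was -0.04. PDIA6 and XBP1 each fell by 0.08 (SE 0.022 and 0.024), where 16.4% of probe sets fell. With the array median PDIA6 was still called (adjusted p = 0.0423) and XBP1 was not (adjusted p = 0.0933), while PDIA4 was called at -0.13 (adjusted p = 0.012). With 5 principal components as covariates 0 of the 8 were called with RORA. With BHLHE40 and CSNK1D the r of the 8 genes ran from -0.0294 to 0.189 and from -0.0214 to 0.189. These hold for the brightest probe sets only. The other probe set of BHLHE40 correlated with the brightest at -0.0951, and those of CSNK1D at 0.115 and 0.0678.

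Genes around the set followed DBP in the same direction in part. Of other ER chaperones 6 of 17 fell with DBP and 1 rose, with HYOU1 falling by 0.32 (SE 0.047) and CRELD2 by 0.26 (SE 0.05). ER to Golgi transport had 13 of 22 lower and 1 higher, translocation 9 of 22 lower and 0 higher, ER-associated degradation 4 of 9 lower and cytosolic chaperones 9 of 14 lower. The median slopes of these lists ran from -0.0203 to -0.113, against 0.00017 over all named genes, of which 908 rose and 911 fell. Immediate early genes, of which 0 were called with HSPA5, had 9 of 14 lower with DBP, ZFP36 by 0.30 (SE 0.051) and JUN by 0.28 (SE 0.042). N-glycosylation had 4 of 15 lower and 1 higher, the PERK and ATF4 arm 6 of 13 lower and 2 higher, plasma proteins 3 of 17 lower and acute phase proteins 2 of 10 lower. Lipogenesis had 5 of 13 higher with DBP, SCD by 0.32 (SE 0.076) and FASN by 0.28 (SE 0.063). Without the 13 arrays 5 of other ER chaperones, 10 of ER to Golgi transport, 5 of translocation, 2 of ER-associated degradation, 7 of cytosolic chaperones and 8 of immediate early genes fell, and 2 of lipogenesis rose, against 440 higher and 514 lower of all named genes.

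The next question was whether the 8 genes went with the fat area of the pigs. All 8 slopes were negative, but 0 of the 8 passed, where 0.125% of 23999 probe sets were called. Of all 6765 named genes 3118 had a positive slope, and the 8 genes correlate with each other, so their signs are not separate results. The levels of MANF were 8.81, 9.86 and 10.79 (lowest, median and highest, log2) in the 30 pigs of largest fat area, against 8.95, 10.34 and 11.09 in the 30 of smallest fat area. The groups overlapped over most of their range, with log2 means of 9.85 ± 0.557 and 10.2 ± 0.556 (SD). Their difference is a fold of 0.757 on the linear scale. XBP1 had 10.63, 11.3 and 11.68 in the fattest 30 and 10.87, 11.46 and 12.12 in the leanest 30, a fold of 0.856. DNAJB11 had 6.4, 6.82 and 8.03 in the fattest 30 and 6.55, 7.13 and 8.26 in the leanest 30, a fold of 0.829.

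Over all 150 pigs MANF had a slope of -0.14 per SD of fat area (SE 0.048, unadjusted p = 0.00331, adjusted p = 0.305), with r = -0.235 and rho = -0.237 (permutation p = 0.00387 and 0.00382), and r was negative in 6 of the 10 blocks of pig numbers. DNAJB11 had -0.11 per SD (SE 0.037, adjusted p = 0.31; r = -0.234, negative in 8 blocks) and XBP1 of -0.07 (SE 0.024, adjusted p = 0.352; r = -0.228, negative in 7). HSPA5 had -0.09 (95% interval -0.171 to -0.0064, adjusted p = 0.652), and PDIA4, HSP90B1, PDIA6 and CALR lay between -0.0664 and -0.004. Fat area also went with DBP itself, which rose by 0.22 per SD (SE 0.05, adjusted p = 0.0231). Given the levels of DBP, ARNTL and NFIL3, the slopes were -0.05 for MANF, -0.05 for DNAJB11, -0.02 for XBP1 and 0.0021 for HSPA5. The Y-linked transcript EIF1AY rose with fat area too, by 0.45 (SE 0.088, adjusted p = 0.00412), and with its level as covariate the slope was -0.14 for MANF, -0.14 for DNAJB11, -0.13 for HSPA5 and -0.08 for XBP1, with 0 of the 8 called. The slopes of the other genes were -0.14 for HSP90B1 (-0.07 without the covariate), -0.09 for PDIA4 (-0.06 without), -0.04 for PDIA6 (-0.01 without) and -0.02 for CALR (-0.004 without). Among the pathway lists, other ER chaperones, ER-associated degradation, translocation, N-glycosylation, ER to Golgi transport and cytosolic chaperones had 0 genes called with fat area, against 8 higher and 3 lower of all 6765 named genes. The PERK and ATF4 arm had 2 of 13 lower, the amino acid enzymes ASNS (slope -0.17, adjusted p = 0.0228) and ALDH18A1 (-0.15, adjusted p = 0.0115).

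With drip loss 0 of the 8 genes passed, where 0% of 23999 probe sets were called and 2638 had an unadjusted p under 0.05 (limma). MANF had levels of 8.81, 9.66 and 10.83 (lowest, median, highest) in the 30 pigs of highest drip loss, against 9.14, 10.18 and 11.06 in the 30 of lowest drip loss. These overlapped, and the difference of the log2 means is a fold of 0.781. Its slope was -0.11 (SE 0.048, unadjusted p = 0.0284, adjusted p = 0.414), with r = -0.177 (permutation p = 0.0306), and r was negative in 5 of the 10 blocks, with -0.0992 within blocks. The slopes of the other 7 genes lay between -0.0344 for PDIA6 and 0.0303 for HSP90B1, and the 95% interval of HSPA5 was -0.0841 to 0.0834. In a model of both traits the slope on fat area minus that on drip loss was called for 0 of the 8 genes, where 0.00833% of probe sets were called. The difference was -0.08 for XBP1 (SE 0.033, adjusted p = 0.55), -0.10 for DNAJB11 (SE 0.05, adjusted p = 0.638) and -0.03 for MANF (SE 0.064, adjusted p = 0.924).

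**Figure D5:**
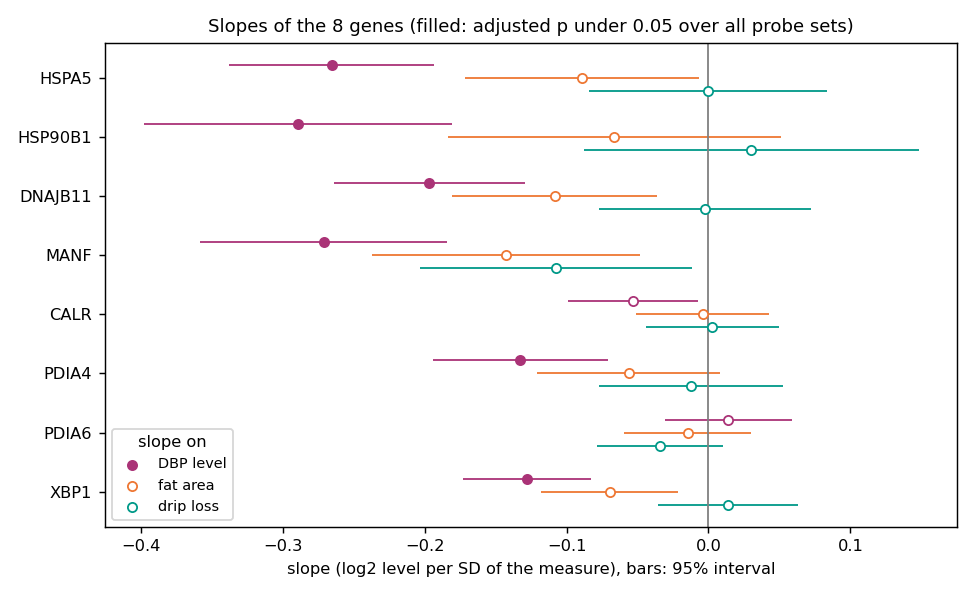
Slope of the log2 level of each of the 8 genes per SD of DBP (purple), fat area (orange) and drip loss (green), with 95% intervals, filled where the adjusted p over all probe sets is under 0.05. The 6 filled points are all slopes on DBP, from -0.29 for HSP90B1 to -0.13 for XBP1, and 0 of the 16 slopes on the traits are filled.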

How the data were processed

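The table the authors deposited holds 1 value per probe set and array on what its range shows to be a log2 scale, with a floor at 4.09. The only tool named, per the submitters' processing notes, is GCOS 1.1.1, and how background and arrays were adjusted is "not given in the sources used here". Precision is limited by the 150 arrays. Of 24123 probe sets 124 controls were left out. Symbols came from the array annotation, matched by Entrez ID to pig genes of Sscrofa11.1 (9961 of 10069 probe sets with 1 symbol, 0 changed); 198 had several symbols and 13732 none, and no gene was named from these. The files name no build, so no coordinates are given.

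Slopes per SD were fitted with limma 3.58.1 (lmFit, eBayes with trend, two-sided, without covariates) in R 4.3.3 over all probe sets, leaving out the probe set used as the measure. The fit was tested on simulated data. Correlations and permutation tests (100000 resamples) used Python 3.11.15, numpy 2.4.6 and scipy 1.17.1. Partial correlations and blocks of 100 title numbers served as checks of order. The 10 highest and 5 lowest by r with the members' mean and, per list, up to 4 called genes of largest slope or, with none called, the 2 of smallest p were named; others (ERP29, FKBP11, DDIT3, ALB, FKBP2, KDELR1) were chosen after their values were seen. The 8 genes and all lists were chosen with earlier results of these data known. Relations were adjusted over all probe sets and not over the 88 relations. Alternatives were other normalization, filters, eBayes settings, scores, covariates and arrays.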

Additional observations from a re-analysis of the deposited data

How the results depend on the processing

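Of the counts and summaries recomputed under alternatives, 161 stayed within 1.5 times (counts) or the spread (correlations) of the value given and 25 did not. Of the slopes of single genes, 630 kept their direction and side of the threshold, 33 lost a call, 9 gained one and 36 changed sign. The count of the 8 genes called was 0 with fat area, drip loss and their difference under every alternative run. With DBP it was 2 with 5 principal components as covariates; with ARNTL it was 3 under quantile normalization, without the arrays that stand apart and with the array median, and 0 with 5 principal components; with NFIL3 and RORA it was 0 and with CRY2 2 with 5 principal components; with PER1 it was 0 with the array median. The fits on CRY2, USP2, PER1 and RORA, the list counts without the 13 arrays and all alternatives of the difference between the traits were chosen after seeing the data.

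Of all probe sets, the percentage called with fat area was 0.125, against 0.192 with an SD above 0.25, 0.192 without the arrays that stand apart, 0.00417 with the Y-linked level, 0.246 with the array median, 0.20 with the 3 prime to 5 prime differences, 0.425 with 5 principal components and 0.0208 with the clock genes as covariates. With DBP it was 20.9, against 9.6 without those arrays and 3.76 with 5 principal components. With ARNTL it was 9.47, against 2.14 under quantile normalization, 4.54 without those arrays, 2.56 with the array median, 5.49 with the 3 prime to 5 prime differences and 1.26 with 5 principal components. With NFIL3 it was 7.51 against 0.575, and with HSPA5 34 against 11, with 5 principal components. The causes were not tested.

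The slopes that changed sign are given at their value under the alternative. Several of these had been called without covariates (limma). HSP90B1 had been called with RORA at 0.18 (adjusted p = 0.006) and with CRY2 at -0.20 (adjusted p = 0.00686). With NFIL3, MANF had been called at 0.22 (adjusted p = 0.000315) and HSPA5 at 0.18 (adjusted p = 0.000497). XBP1 at 0.13 (adjusted p = 4.88e-06) and DNAJB11 at 0.12 (adjusted p = 0.0306) had been called with NFIL3 too. With fat area they were 0.0021 for HSPA5, 0.029 for HSP90B1 and 0.012 for CALR with clock genes as covariates, and 0.0023 for CALR on normal scores. With drip loss, DNAJB11 had 0.00024 on normal scores, 0.0020 without the arrays that stand apart and 0.0011 with 5 principal components, HSPA5 had 0.0024 on normal scores and 0.0044 without those arrays, and PDIA4 had 0.0025 with 5 principal components. HSP90B1 had -0.0026 with the title number, -0.028 with the array median, -0.020 with 5 principal components and -0.020 with clock genes. CALR had -0.0030 on normal scores, -0.0038 without those arrays, -0.0030 with the title number, -0.0036 with the array median, -0.012 with the 3 prime to 5 prime differences and -0.011 with clock genes. With NFIL3 and 5 principal components the slope was -0.017 for MANF, -0.039 for DNAJB11, -0.0066 for HSPA5, -0.011 for HSP90B1, -0.067 for PDIA4 and -0.016 for XBP1. With CRY2 it was 0.0087 for HSP90B1 with 5 principal components, 0.0019 for PDIA6 and 0.017 for CALR without those arrays, and 0.0053 for CALR with the array median. With RORA it was 0.049 for MANF, -0.023 for HSP90B1 and 0.0043 for CALR with 5 principal components, -0.0018 for DNAJB11 under quantile normalization, and -0.0065 for DNAJB11 and -0.043 for HSP90B1 with the array median.

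The main limits are the single tissue sample per pig, levels compared on shared arrays, the unknown normalization and the absence of sex and slaughter time among the labels used. No paired analysis was possible because the labels put all livers in 1 group.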
